A study of Mus musculus with 24 samples.

Results

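The clustered protocadherins are cell surface proteins of the cadherin superfamily whose genes lie in the Pcdha, Pcdhb and Pcdhg clusters on mouse chromosome 18. All gene symbols that begin with Pcdha, Pcdhb or Pcdhg in the RNAseq tables of mouse embryonic stem cells (ESCs) and of neural progenitors (NPCs) were taken. These were 56 of 21909 symbols, with 13 in Pcdha, 22 in Pcdhb and 21 in Pcdhg. The study mapped nucleolus-associated domains (NADs), the parts of the genome that contact the nucleolus, in both cell types, and measured RNA in the same cell types to relate contacts to expression. ESCs were of the male mouse line E14, grown in 2i medium with LIF, and the 3 RNAseq samples had no treatment. NPCs were derived in vitro from E14 ESCs as embryoid bodies in suspension over 8 days, with 2 µM retinoic acid in the last 4 days, and gave 3 untreated RNAseq samples. The RNA came from 3 separate culture dishes of each cell type, all of the same line, so that errors and p-values measure the spread between dishes. The NADs came from E14 ESCs, and NPCs derived from them, that carried a Dam methylase transgene fused to histone H2B, with or without a nucleolar localization signal, at 1 allele of Rosa26. Doxycycline (100 ng/ml) and Shield1 (1 µM) induced this transgene over 15 h, in 2 experiments per cell type.

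Clustered protocadherins give neurons a surface identity. Each neuron uses a small set of them, chosen largely at random among the promoters, and proteins of the same kind bind each other across cells, which lets the branches of one neuron recognise and avoid each other. In Pcdha and Pcdhg every gene has its own large first exon, which encodes the extracellular cadherin repeats, the membrane span and the start of the cytoplasmic tail, and this exon is spliced to a few constant exons at the end of the cluster. Pcdhb genes have a single large exon and no constant part, and the C-type genes at the ends of Pcdha and Pcdhg are used more broadly than the others.

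The positions of the clusters on chromosome 18 (GRCm38, GENCODE M21 annotation) were 36930184 to 37187661 for Pcdha, 37264938 to 37524479 for Pcdhb and 37661793 to 37841873 for Pcdhg, all genes on the plus strand. The 13 Pcdha genes share 3 constant exons of 59, 89 and 2712 bp, at 37156155 to 37156213, 37159265 to 37159353 and 37184946 to 37187657. The 21 Pcdhg genes share 3 others of 59, 89 and 1968 bp, at 37825021 to 37825079, 37833265 to 37833353 and 37839903 to 37841870. The constant exons of both clusters thus have equal lengths in the first and the second exon and differ in the last. No exon base was common to the Pcdhb genes, and in 19 of 22 all exon bases belonged to that gene alone. The exceptions were Pcdhb21 and Pcdhb22, whose ends overlap each other, and Pcdhb12, of which 1927 of 3034 exonic bases lie opposite an antisense gene.

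Reads in the constant exons cannot be given to a single gene, and such reads may have been left out of the tables, whatever their strand. Among 124 genes without an exon base of their own, 119 (96.0%) were listed at 0 in all 6 samples, against 15.5% of 21331 genes with at least 1 such base. Pcdhga10 has 2613 bases of its own on its strand, but all of them lie opposite the gene Gm26672, and Pcdhga10 was listed at 0 in all samples. For Pcdha4 only 404 unshared bases remained, because the readthrough gene Gm42416 covers most of its first exon, and it was also at 0. Gm42416 and the readthrough genes Gm37013 and Gm37388, which span 857355 to 887459 bp from Pcdha to Pcdhg and have no base of their own, were at 0 in all 6 samples too. A value of 0 for these 5 genes is therefore not read here as absence of their RNA. Pcdha11 stood on 2 lines with the same reads, one for a gene model starting at 37005203 and one for a model starting at 37010712. It was counted once, by its symbol, with the exons of both. The 2 models have separate first exons, ending at 37007701 and 37014034, and share 2860 bases, as other Pcdha genes do. The reads of Pcdha11 may therefore pool 2 genes.

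The deposited values are RPKM, reads scaled by the depth of the sample and the length of the gene in kb. The length behind them was the distance from the start to the end of the gene, introns included, since with this length the values gave whole reads for each of the 56 genes in all 6 samples, at most 3.81e-06 away from a whole number. Over the tables, 94.0% of 21454 genes gave whole reads in all samples (within 0.01 read, or 0.001% of the reads where this is more). The median ratio of this length to the exonic length was 4.87 over all genes, 1.00 in Pcdhb, 21.3 in Pcdhg and 40.1 in Pcdha. RPKM therefore set the spliced Pcdhg and Pcdha genes far below Pcdhb genes with the same number of reads. For this reason levels are given below as reads and as RPM, the same depth-scaled value without the length, which serves to compare a gene or cluster between samples. Between genes, RPM per kb of unshared exon is used. Unshared bases are defined by position alone, and how similarity of sequence between genes affects the reads was not examined. The 3 ESC samples had 34.1, 33.7 and 30.8 M reads and the 3 NPC samples 30.2, 27.3 and 32.3 M. In ESC replicate 1, 1 read was 0.0294 RPM. Intervals and floors below cover counting error only.

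ESC replicate 3 stood apart from the other ESC samples by transcript length. Its log2 ratio to the mean of replicates 1 and 2 had a Spearman correlation of −0.64 with exonic length across 10621 genes with a mean of at least 100 reads, against −0.13 to 0.11 for each NPC sample set against the other NPC samples. The genes of 374 to 3045 bp, up to the first quartile, had a median log2 ratio of 0.41, and those of 7208 to 123179 bp, from the last quartile on, of −0.80. Genes of 4261 to 5439 exonic bp, the quartiles of the clustered protocadherins, had a median of −0.26 (n = 1632) and a 5th percentile of −1.10. The summed Pcdhg RPM had −1.13. The part of transcript length in the low Pcdhg values of this sample was not tested, and the fold changes of Pcdhg genes and groups, and of some other genes in which this sample was far from the others, are given with and without it.

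Summed over each cluster, all 3 clusters were higher in NPCs, from very different levels in ESCs. Pcdha had 0, 1 and 0 reads in the ESC samples and 75, 31 and 63 in the NPC samples. Pcdhb had 16, 20 and 10 reads in ESCs and 3980, 2782 and 2970 in NPCs. Pcdhg had 871, 930 and 373 reads in ESCs and 4013, 3349 and 4060 in NPCs. In each cluster all NPC samples lay above all ESC samples, and ESC replicate 3 had the fewest Pcdhb and Pcdhg reads. In RPM, Pcdhb rose from 0.463 ± 0.134 (SD, n = 3) to 109 ± 20.8 (SD, n = 3), a 235-fold difference of the means. Pcdhg went from 21.8 ± 8.41 to 127 ± 5.29 RPM, a 5.85-fold difference. Without ESC replicate 3 the ESC mean was 26.6 and the difference 4.79-fold, and for Pcdhb 204-fold. Pcdha went from 0.00988 to 1.86 ± 0.680 RPM. In bulk samples, fewer cells that use a gene and less RNA of it per cell cannot be told apart.

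The scale decided the order of the clusters in NPCs. In summed RPKM, Pcdhb reached 22.5 ± 4.42, Pcdhg 1.99 ± 0.0262 and Pcdha 0.0126 ± 0.00359 (SD, n = 3). In RPM per kb of unshared exon, Pcdhg had 2.27 ± 0.0943, Pcdhb 1.21 ± 0.232 and Pcdha 0.0609 ± 0.0223. Per kb of unshared exon, Pcdhg was thus above Pcdhb in all NPC samples (2.19 to 2.37 against 1.02 to 1.47). In ESCs the order per kb was Pcdhg with 0.388 (0.456, 0.491 and 0.216 in the samples), Pcdhb with 0.00515 ± 0.00149 and Pcdha with 0.000324.

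**Figure D1:**
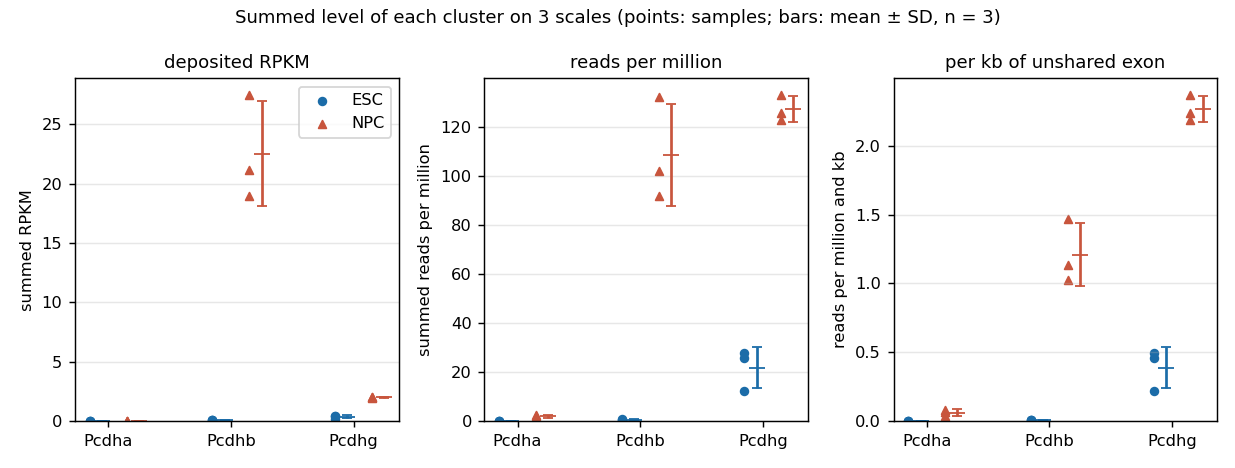
Summed level of the Pcdha, Pcdhb and Pcdhg clusters in 3 ESC samples (circles) and 3 NPC samples (triangles) as RPKM, as RPM, and as RPM per kb of unshared exon, on linear axes. Bars are the mean ± SD (n = 3). Pcdhb leads in NPCs in RPKM (22.5 against 1.99 in Pcdhg), whereas per kb of unshared exon Pcdhg leads (2.27 against 1.21).

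The number of genes with signal differed as much between the clusters. At a level of at least 1 RPKM no member was detected in any ESC sample, and in NPCs 10, 9 and 7 Pcdhb genes, 0, 1 and 1 Pcdhg genes and no Pcdha gene were. At least 1 read was present for 20 of 21 Pcdhg genes in each of the 6 samples. In Pcdhb, 7, 12 and 5 of 22 genes had a read in the ESC samples, and 22, 22 and 21 in the NPC samples. Pcdha had 11, 8 and 10 of 13 genes with a read in NPCs and 0, 1 and 0 in ESCs. In RPM, every NPC sample was above every ESC sample for 7 Pcdha, 21 Pcdhb and 18 Pcdhg genes, and below for 1 Pcdhg gene. Over all 16741 genes with a read, 45.8% had every NPC sample above and 27.1% every NPC sample below.

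**Figure D2:**
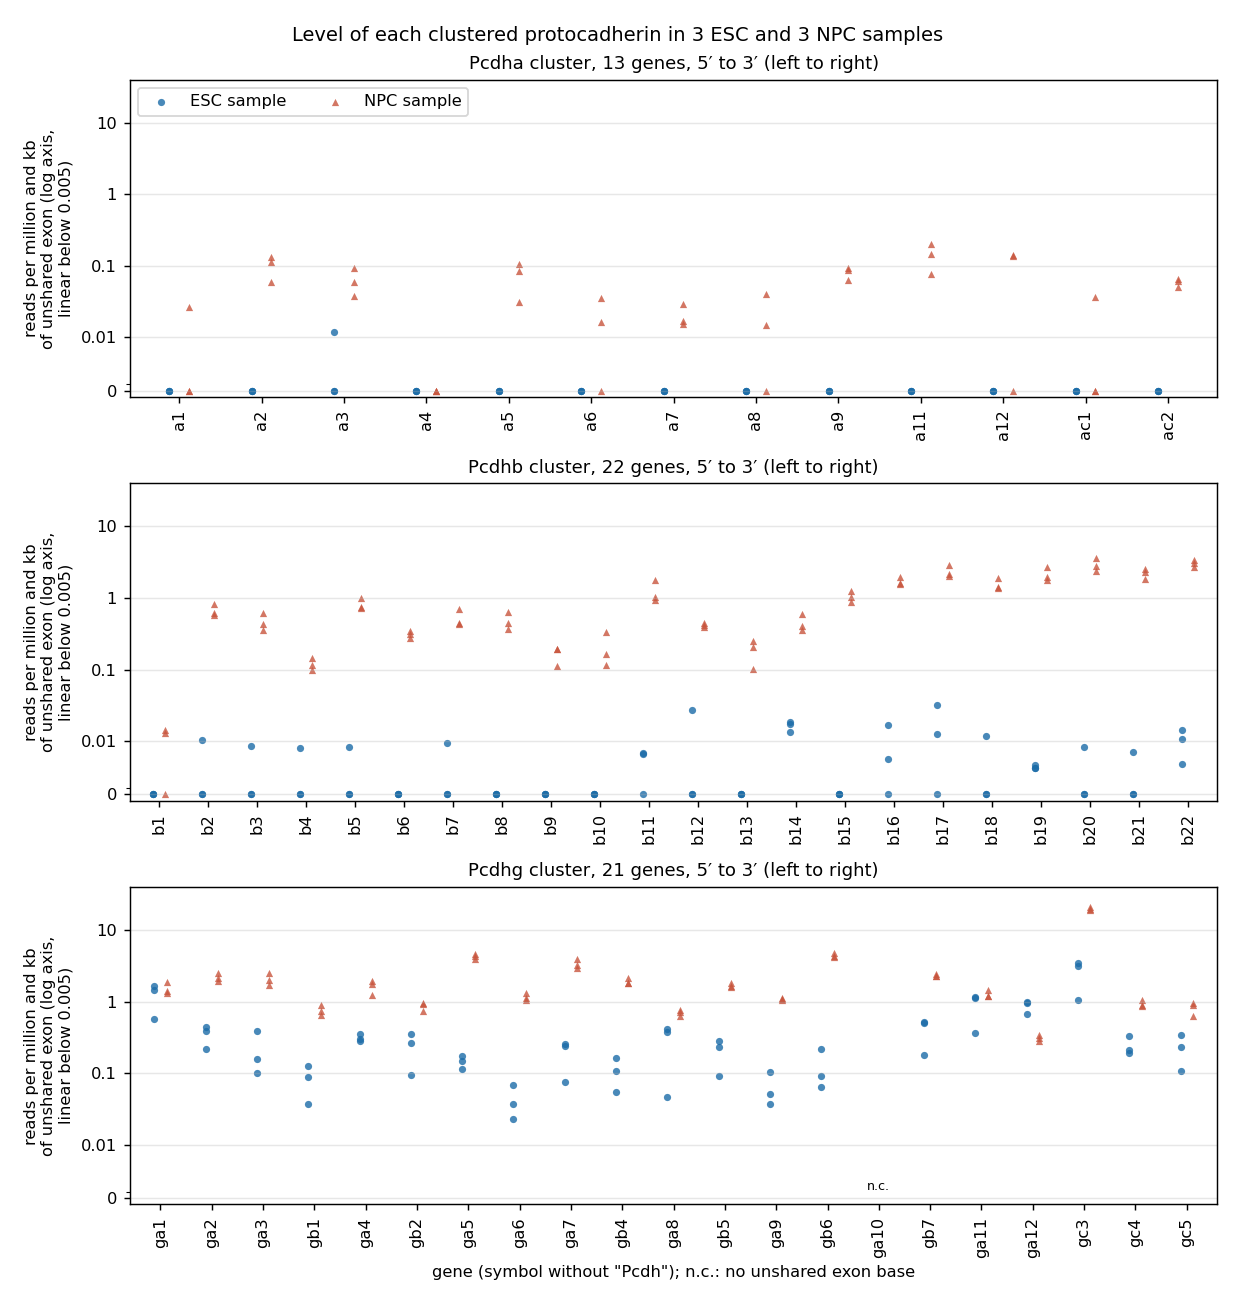
RPM per kb of unshared exon (log axis, linear below 0.005) of the 55 genes with an unshared exon base in 3 ESC samples (circles) and 3 NPC samples (triangles), in the order of the genes on chromosome 18. In Pcdhb the last 7 genes have the highest NPC levels (1.58 to 3.08). In Pcdhg the ESC samples lie well above 0, Pcdhgc3 is highest in both cell types, and Pcdhga12 is lower in NPCs.

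Pcdha genes were close to the limit of detection. Pcdha11, whose reads may pool 2 genes, had no read in ESCs and 23, 8 and 18 reads in NPCs. This is at least 17.9-fold higher against a floor of 3 reads over the ESC samples. In NPCs it had 0.143 ± 0.0625 RPM per kb of unshared exon, with samples overlapping those of Pcdha2 (0.101 ± 0.0381). On the length of its own strand Pcdha11 would have 0.0757, below Pcdha2, so the order at the top of the cluster is not resolved. Pcdhac2, a C-type gene with a role in the spacing of serotonergic axons, had no read in ESCs and 6, 5 and 5 in NPCs (at least 5.86-fold). All 3 NPC samples of Pcdhac2 held reads at a similar level, unlike those of Pcdha12, which had 8, 0 and 9 NPC reads and none in ESCs. The other C-type gene, Pcdhac1, had 0, 0 and 3 NPC reads. Pcdha9 had 7, 6 and 5 reads in NPCs (at least 6.59-fold), again in all 3 samples. The lowest members above 0 in RPKM were Pcdha1 with 2, 0 and 0 NPC reads and Pcdha6 with 2, 0 and 1, too few for a ratio. The single ESC read of the cluster was in Pcdha3, in ESC replicate 2.

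Pcdhb genes were nearly silent in ESCs and all but Pcdhb1 had reads in each NPC sample. Pcdhb22 had 3, 1 and 2 reads in the ESC samples and 639, 519 and 537 in the NPC samples. Pcdhb20 had 0, 1 and 0 ESC reads and 391, 273 and 270 NPC reads. Pcdhb17 had 5, 2 and 0 ESC reads and 411, 274 and 307 NPC reads. In these genes the lowest NPC sample was far above the highest ESC sample, and NPC replicate 1 was highest, as it was in 20 of 22 Pcdhb genes. Pcdhb19 had 1, 1 and 1 ESC reads against 587, 380 and 417 in NPCs, a ratio of 507 with a 95% counting interval of 173 to 2461. The ratio was 1026 (184 to 40574) for Pcdhb20 and 310.4 (142 to 847) for Pcdhb22, so that the counting error in ESCs alone leaves each uncertain by several times. Pcdhb14, chosen after its values were seen, held the most ESC reads of the cluster, 4, 5 and 5, and had 155, 95 and 100 NPC reads, a ratio of 27.5 (16.2 to 50.8).

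Within Pcdhb the level in NPCs followed the position. Per kb of unshared exon, the last 7 genes, Pcdhb16 to Pcdhb22, were the 7 highest, with 1.58 to 3.08 RPM per kb, against 0.00900 to 1.25 (median 0.449) in the 15 genes before them. They held 75.7% of the cluster's NPC RPM. Across the 22 genes, position from first to last had a Spearman correlation of 0.74 with the NPC level, compared with −0.11 across the 20 Pcdhg genes with an unshared base and 0.20 across the 13 Pcdha genes. Neighbouring genes lie in the same domain and share the libraries, so these are descriptions. At the other end Pcdhb1 had 1, 1 and 0 NPC reads and none in ESCs, and Pcdhb4 had 16, 10 and 14 NPC reads and 0, 1 and 0 ESC reads.

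In the limma fit on log2(RPKM + 1) over 7831 genes with at least 1 RPKM in 3 of the 6 samples, 7 of the 56 genes could be tested, Pcdhb16 to Pcdhb22. All 7 were called higher in NPCs at a Benjamini-Hochberg adjusted p under 0.05, in a comparison in which 37.0% of all genes tested were called higher and 33.3% lower. They passed the filter through the NPC samples alone, so their number says nothing beyond their values. The largest log2 fold change was that of Pcdhb20 (1.96 ± 0.115, SE; limma with Benjamini-Hochberg, adjusted p = 1.04e-05), followed by Pcdhb22 (1.93 ± 0.0700, adjusted p = 1.05e-06) and Pcdhb17 (1.72 ± 0.0978, adjusted p = 8.74e-06). The pseudocount of 1 RPKM holds these values far below the ratios of the reads. Pcdhb11, Pcdhb15 and Pcdhgc3 missed the filter with NPC means of 1.25, 1.05 and 1.02 RPKM.

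A second limma fit, chosen after seeing the data, used voom weights on the recovered reads of 13177 genes with a mean of at least 10 reads. It could test 17 Pcdhb genes, 20 Pcdhg genes and no Pcdha gene. All 17 Pcdhb and 16 Pcdhg genes were called higher and 1 Pcdhg gene lower, where 46.0% of all genes tested were called higher and 27.9% lower. The Pcdhb genes again passed through their NPC reads, and so did Pcdhga6, Pcdhga9 and Pcdhgb1, with ESC means under 10 reads. For Pcdhg genes, which had reads in both cell types, the log2 fold changes of those called higher ran from 1.97 to 5.28 (limma with Benjamini-Hochberg, adjusted p 2.51e-06 to 0.0047), or from 1.47 to 4.92 for the same 16 genes without ESC replicate 3. The median over all genes tested was 0.38 in this fit and 0.27 after scaling by median ratio, and in the RPKM fit it moved from 0.02 to 0.18. The same numbers of clustered protocadherins were called in each direction with and without this scaling.

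Pcdhg genes were distinguished by a signal in ESCs. Pcdhgc3, a C-type gene whose product binds Axin1, had 196, 213 and 60 reads in ESCs and 1039, 995 and 1229 in NPCs. The NPC samples lay closely together and above all ESC samples, of which replicate 3 was low. Its log2 fold change was 3.11 ± 0.386 (SE; limma with Benjamini-Hochberg, adjusted p = 3.09e-04), or 2.73 above the median of all genes, and 2.59 without ESC replicate 3. Per kb of unshared exon Pcdhgc3 was the highest of the 55 genes with an unshared exon base in both cell types, with 2.57 ± 1.30 RPM per kb in ESCs and 20.0 ± 0.989 in NPCs. An antisense gene, BC037039, lies opposite 1559 of its exonic bases. On the length of its own strand Pcdhgc3 would have 10.8 in NPCs, still above all others of these genes.

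The next levels in NPCs per kb of unshared exon were those of Pcdhgb6 (4.49 ± 0.328), Pcdhga5 (4.305 ± 0.324) and Pcdhga7 (3.36 ± 0.505), followed by Pcdhb22 (3.08 ± 0.371) and Pcdhb20 (2.94 ± 0.656). The samples of Pcdhgb6 and Pcdhga5 overlapped, and so did those of Pcdhga7, Pcdhb22 and Pcdhb20, so that the order within these groups is not resolved. Pcdhgb6 had 8, 19 and 5 reads in ESCs and 376, 297 and 361 in NPCs, and Pcdhga5 had 13, 15 and 9 against 355, 299 and 327. Both were among the lower Pcdhg genes in ESCs, at ranks 16 and 15 of 20 per kb, where the highest after Pcdhgc3 were Pcdhga1, Pcdhga12 and Pcdhga11. Their log2 fold changes, 5.28 ± 0.361 for Pcdhgb6 (limma with Benjamini-Hochberg, adjusted p = 1.56e-05) and 4.83 ± 0.219 for Pcdhga5 (adjusted p = 2.51e-06), were the largest of the cluster, and were 4.92 and 4.68 without ESC replicate 3.

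The other C-type genes had smaller log2 fold changes than Pcdhgc3. Pcdhgc4, the member needed for the survival of young neurons, had 23, 25 and 36 reads in ESCs and 112, 86 and 99 in NPCs. ESC replicate 3 was the highest ESC sample here, unlike in 17 of the 21 Pcdhg genes, where it was the lowest. Pcdhgc5 had 37, 53 and 15 ESC reads and 88, 121 and 133 NPC reads. Both were called higher, Pcdhgc4 with a log2 fold change of 1.97 ± 0.246 (limma with Benjamini-Hochberg, adjusted p = 3.19e-04) and Pcdhgc5 with 1.97 ± 0.403 (adjusted p = 0.00385), which were 2.20 and 1.51 without ESC replicate 3. Pcdhgb1, one of the lowest members of the cluster in NPC RPKM, had 8, 11 and 3 ESC reads and 59, 46 and 75 NPC reads, a log2 fold change of 3.22 ± 0.393 (adjusted p = 2.83e-04), and of 2.78 without ESC replicate 3.

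A few Pcdhg genes departed from the rest of the cluster. Pcdhga12, chosen after its values were seen, had 141, 134 and 86 reads in ESCs and 35, 38 and 41 in NPCs. All NPC samples lay below all ESC samples, ESC replicate 3 included, and the NPC samples were nearly equal. The ratio of NPC to ESC RPM was 0.347 (95% counting interval 0.279 to 0.429), and the log2 fold change −1.49 ± 0.232 (SE; limma with Benjamini-Hochberg, adjusted p = 9.77e-04), or −1.87 relative to the median of all genes. It was −1.66 without ESC replicate 3 and between −1.66 and −1.39 over all samples left out in turn. In the fit of reads Pcdhga12 was the only member called lower. Its share of the cluster's reads went from 16.6% in ESCs to 0.998% in NPCs.

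Pcdhga1 and Pcdhga11, also chosen after their values were seen, and Pcdhga8 did not pass the test. Pcdhga1 had 159, 138 and 50 reads in ESCs and 164, 110 and 122 in NPCs. Its groups overlapped, with a log2 fold change of 0.45 ± 0.400 (limma with Benjamini-Hochberg, adjusted p = 0.334), 0.07 above the median of all genes. Without ESC replicate 3 its log2 fold change was −0.0043. Pcdhga11 had 48, 49 and 14 ESC reads and 46, 41 and 60 NPC reads, a log2 fold change of 0.71 ± 0.439 (adjusted p = 0.182) and of 0.19 without that sample. Pcdhga8 had 27, 29 and 3 ESC reads and 45, 36 and 52 NPC reads, a log2 fold change of 1.76 ± 0.694 (adjusted p = 0.0538). ESC replicate 3 was far below the other ESC samples in all 3 genes. Pcdhga8 was called higher when any ESC sample was left out, with a log2 fold change of 0.83 (adjusted p = 0.0104) without replicate 3, 2.27 (0.0342) without replicate 2 and 2.21 (0.0394) without replicate 1, and not called when an NPC sample was left out (adjusted p 0.0946 to 0.123). An antisense gene lies opposite part of Pcdhga1, Pcdhga7, Pcdhga8, Pcdhgb7, Pcdhga11 and Pcdhga12, so the unshared lengths of these 6 genes are shorter than their first exons.

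The Pcdhg genes were also summed by type. The 12 A-type genes had 485, 488 and 217 reads in ESCs and 1642, 1235 and 1510 in NPCs, the 6 B-type genes 130, 151 and 45 against 1132, 912 and 1089, and the 3 C-type genes 256, 291 and 111 against 1239, 1202 and 1461. Each type was higher in every NPC sample, by 4.10-fold in A, 10.7-fold in B and 6.60-fold in C of the mean RPM, or 3.40, 8.42 and 5.39-fold without ESC replicate 3. These values and their order changed when genes were left out, chosen after seeing the data. Without Pcdhga1 and Pcdhga12 the A-type genes were 8.95-fold higher, without Pcdhgb6 the B-type 7.98-fold and without Pcdhgc3 the C-type 3.74-fold. The A-type genes held 54.7% of the cluster's reads in ESCs and 38.4% in NPCs, and the B-type genes 15.0% and 27.4%. These shares count unshared exons only, and the difference between types was not tested.

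The order of the genes also differed between the clusters. Between the ESC and NPC means of RPKM, the Spearman correlation across genes was 0.53 in Pcdhb (n = 22) and 0.42 in Pcdhg (n = 21), where Pcdhga10 enters at 0 in both. Without Pcdhga10 it was 0.32 in Pcdhg (n = 20). In RPM, where the length of the gene does not enter, it was 0.70 in Pcdhb (n = 22) and −0.05 in Pcdhg without Pcdhga10 (n = 20). The Pcdhb value rests on genes with 0 to 14 ESC reads, whose order correlated between ESC samples at 0.14 to 0.55. Among NPC samples the order correlated at 0.97 to 0.98 in Pcdhb, 0.95 to 0.98 in Pcdhg and 0.58 to 0.81 in Pcdha, and among ESC samples at 0.79 to 0.94 in Pcdhg. Genes of a cluster are not independent, and these values describe the samples.

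NADs covered the clusters differently in the 2 cell types. A NAD has a score by the authors for H2B-Dam-NoLS over H2B-Dam, 1 value for both experiments together, without a replicate error. In ESCs a NAD at 37099968 to 37299939 (score 0.0250) covered the 3′ part of Pcdha with its constant exons, and the first 2 Pcdhb genes. Another, at 37600063 to 37998493 (score 0.0259), covered all of Pcdhg. In NPCs a NAD at 36999945 to 37100302 (score 0.0541) covered the middle of Pcdha, and one at 37599023 to 37699819 (score 0.0368) the first genes of Pcdhg. The median scores were 0.0256 over the 1769 NADs of ESCs and 0.0413 over the 1447 of NPCs, so that 3 of these 4 NADs were near or below the median of their list. The next NADs outside the clusters lay at similar places in both cell types, 36500543 to 36700052 (score 0.0547) in ESCs and 36500543 to 36698704 (0.0527) in NPCs on one side, and 39400738 to 39499986 (0.0308 in ESCs, 0.0593 in NPCs) on the other.

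**Figure D3:**
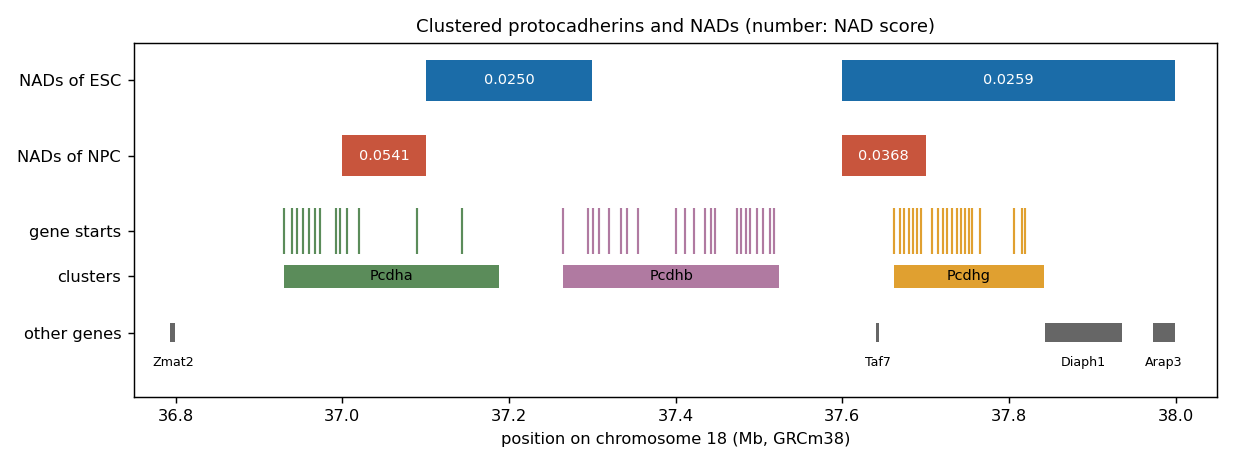
Map of 1.3 Mb of chromosome 18 (position in Mb, GRCm38) with the NADs of ESCs and of NPCs and their scores, the start of each of the 56 genes, the 3 clusters and 4 other genes. Pcdhg lies within a NAD in ESCs, while in NPCs a NAD covers 21.1% of it. Pcdhb has no NAD in NPCs.

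The share of bases within NADs was 34.1% in ESCs and 39.0% in NPCs for Pcdha, 13.5% and 0% for Pcdhb, and 100% and 21.1% for Pcdhg. By the start of the gene, where the promoter lies, 1 Pcdha, 2 Pcdhb and 21 Pcdhg genes were in a NAD in ESCs, and 3, 0 and 7 in NPCs. The paper states a resolution of 100 kb for the NAD data, so NAD edges are coarser than single genes. Pcdhb3 starts at 37300799, just past the ESC edge at 37299939, and Pcdhga5 at 37694380, just inside the NPC edge at 37699819. Assignments of genes near an edge are thus uncertain. Of 21432 genes of the tables with a position, 23.6% were in a NAD by their start in ESCs and 18.9% in NPCs. The start of Pcdhac2 lay in a NAD only in ESCs, and those of Pcdha11, Pcdha12 and Pcdhac1 only in NPCs, and all 4 had no ESC read. By any overlapping base, 13 Pcdha, 2 Pcdhb and 21 Pcdhg genes touched a NAD in ESCs and 12, 0 and 7 in NPCs (27.1% and 21.6% of all genes with a position), since Pcdha genes extend to the shared constant exons.

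Within Pcdhg, 7 genes (Pcdhga1 to Pcdhga5) had their start in a NAD in both cell types and 14 (Pcdhga6 to Pcdhgc5) in ESCs only. The first group had 7.87, 8.45 and 3.64 RPM in the ESC samples and 37.8, 31.1 and 31.4 in the NPC samples, a 5.02-fold difference of the means. The second had 17.7, 19.1 and 8.48 in ESCs and 95.3, 91.8 and 94.3 in NPCs, a 6.21-fold difference. The differences were 4.09-fold and 5.09-fold without ESC replicate 3. Both groups rose by a similar factor in sum, and each held genes with large and small changes, with log2 fold changes from 0.45 (Pcdhga1) to 4.83 (Pcdhga5) in the first and from −1.49 (Pcdhga12) to 5.28 (Pcdhgb6) in the second, or from −0.0043 to 4.68 and from −1.66 to 4.92 for the same genes without that sample. The 20 Pcdhb genes outside NADs in both cell types, Pcdhb3 to Pcdhb22, had 0.441, 0.593 and 0.325 RPM in ESCs and 130, 100.4 and 90.2 in NPCs. Pcdhb1 and Pcdhb2, with their starts in a NAD in ESCs, together had 0.0294, 0 and 0 RPM in ESCs, a single read, and 2.39, 1.69 and 1.73 in NPCs. Both groups of Pcdhb genes were thus higher in NPCs. The groups rest on NAD edges that are coarser than single genes, so genes near an edge may be misplaced. Whether the groups differ was not tested, and the NADs and the RNA come from different cultures.

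The genes around the clusters did not move as one. Within 500 kb of the clusters or between them lay 31 other genes of the tables, of which 19 were tested in the RPKM fit, 8 called higher and 7 lower (37.0% and 33.3% over all genes), with a median log2 fold change of −0.08 against 0.02 over all genes. In the fit of reads 7 of 12 were called higher and 3 lower (46.0% and 27.9% over all genes), with a median of 0.48 against 0.38. Taf7, a subunit of the general transcription factor TFIID, lies between Pcdhb and Pcdhg, within a NAD in both cell types. It had 42.3, 41.8 and 51.6 RPKM in ESCs and 9.57, 8.13 and 8.45 in NPCs, with a log2 fold change of −2.25 ± 0.123 (SE; limma with Benjamini-Hochberg, adjusted p = 7.33e-06). All NPC samples of Taf7 were below all ESC samples, in a direction opposite to the clusters on both of its sides. Gnpda1, which acts in glucosamine metabolism, fell by 2.05 ± 0.175 on the log2 scale (adjusted p = 6.89e-05; by 2.24 without ESC replicate 3) and Dnd1, a germ cell RNA-binding protein, by 1.27 ± 0.0603 (adjusted p = 3.72e-06). Dnd1 passed the filter through its ESC samples alone, with 2.58, 2.98 and 2.67 RPKM in ESCs and 0.574, 0.534 and 0.560 in NPCs. Diaph1, the formin next to the end of Pcdhg and chosen after its values were seen, had 2.65, 2.78 and 2.13 RPKM in ESCs and 0.584, 0.533 and 0.530 in NPCs. Its groups did not overlap, and its log2 fold change was −1.18 ± 0.0806 (adjusted p = 2.21e-05). Diaph1 also passed the filter through its ESC samples alone. Of the 8 genes called higher, 2 (Arap3 and Pcdh1) passed the filter through their NPC samples alone, and these had the largest rises: Arap3, a GTPase-activating protein (1.33 ± 0.0412, adjusted p = 5.5e-07), and the non-clustered protocadherin Pcdh1 (1.12 ± 0.0301, adjusted p = 3.12e-07). Next was Tmco6 (0.77 ± 0.0798, adjusted p = 1.84e-04). The gene with the highest mean, Ndufa2 of respiratory complex I, had 22.4, 25.2 and 67.6 RPKM in ESCs and 28.7, 27.5 and 29.1 in NPCs and was not called (log2 fold change −0.24, adjusted p = 0.613). ESC replicate 3 was far above the others there, and without it Ndufa2 was called higher (0.25, adjusted p = 0.00653).

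Genes known to act on these clusters were taken from a list of CTCF, cohesin and chromatin regulators. CTCF and cohesin join cluster enhancers to the chosen promoters, and DNA methylation keeps the other promoters silent. Of 30 listed genes 27 were tested in the RPKM fit, with 12 called higher and 6 lower (37.0% and 33.3% over all genes) and a median log2 fold change of 0.20 against 0.02. Of the 12 called higher, 8 passed the filter through their NPC samples alone. In the fit of reads, 10 of 26 were called higher and 6 lower, with a median of 0.17 against 0.38 over all genes. The DNA methyltransferase Dnmt3a had 0.172, 0.187 and 0.117 RPKM in ESCs and 5.45, 5.32 and 5.02 in NPCs, a log2 fold change of 2.43 ± 0.0604 (limma with Benjamini-Hochberg, adjusted p = 2.42e-07). Dnmt3b, known to methylate promoters of these clusters in the early embryo, had 4.03, 4.35 and 2.78 RPKM in ESCs and 0.537, 0.557 and 0.578 in NPCs, with a log2 fold change of −1.58 ± 0.133 (adjusted p = 6.43e-05), and of −1.74 without ESC replicate 3. In neither gene did the groups overlap. Dnmt3a passed the filter through its NPC samples alone and Dnmt3b through its ESC samples alone. Dnmt1, named after its values were seen, had 11.4, 11.5 and 5.35 RPKM in ESCs and 7.75, 8.51 and 8.37 in NPCs and was not called (log2 fold change −0.11, adjusted p = 0.727), but was called lower without ESC replicate 3 (−0.43, adjusted p = 1.13e-04). Tet3, which oxidises methylated cytosine, rose (1.59 ± 0.0357, adjusted p = 2.03e-07) and Tet1, of the same function, fell by 1.31 ± 0.383 (adjusted p = 0.0207). Without ESC replicate 3, which was low in Tet1 (7.22, 7.00 and 2.02 RPKM), Tet1 fell by 1.79.

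The cohesin acetyltransferase gene Esco2 fell by 1.74 ± 0.168 (limma with Benjamini-Hochberg, adjusted p = 1.28e-04) and by 1.93 without ESC replicate 3, and Wiz, a zinc finger protein that works with CTCF and cohesin at these clusters, rose by 1.37 ± 0.209 (adjusted p = 0.00121) and by 1.12 without ESC replicate 3. Trim28, a corepressor and the gene with the highest mean of the list, had 59.4, 64.8 and 79.3 RPKM in ESCs and 31.0, 29.9 and 29.9 in NPCs and was called lower (adjusted p = 3.71e-04). Ctcf itself, chosen after its values were seen, had 5.24, 4.86 and 3.16 RPKM in ESCs and 3.68, 3.72 and 3.59 in NPCs, with ESC replicate 3 below all others. It was not called (log2 fold change −0.19 ± 0.159, adjusted p = 0.305), but was called lower without that sample (−0.37, adjusted p = 1.16e-04). Without ESC replicate 3 the list had 11 genes called lower in place of 6, and 12 in place of 6 in the fit of reads, while the shares over all genes went from 33.3% to 44.0% and from 27.9% to 36.5%. Among them were Pds5a and Tet2, named after their values were seen, whose log2 fold changes in the RPKM fit turned from 0.05 (adjusted p = 0.855) to −0.23 (0.0013) and from 0.23 (0.537) to −0.16 (0.0185). Smchd1, a repressor of the clustered protocadherins that was also chosen after its values were seen, had 0.683, 0.664 and 0.336 RPKM in ESCs and 1.45, 1.46 and 1.48 in NPCs (log2 fold change 0.67 ± 0.0935, adjusted p = 8.1e-04, and 0.56 without ESC replicate 3).

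Non-clustered protocadherins have separate genes and no shared exons. Of 12 genes 2 were tested in the RPKM fit, both called higher (37.0% over all genes), and in the fit of reads 10 of 10 (46.0% over all genes). Both genes in the RPKM fit and 8 of the 10 in the fit of reads passed the filter through their NPC samples, so the numbers say nothing beyond the values, and 5 of the 11 genes with recovered reads had no ESC read. Pcdh18 had 0, 6 and 1 reads in ESCs and 5561, 4735 and 5574 in NPCs (log2 fold change of log2(RPKM + 1) 3.76 ± 0.0658, limma with Benjamini-Hochberg, adjusted p = 1.86e-07). Pcdh1 had 19, 21 and 10 ESC reads and 1003, 873 and 989 NPC reads. The groups of both genes were far apart, with the spread within each group small beside the distance.

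Of 29 listed partners and processing enzymes of the clustered protocadherins, 18 were tested in the RPKM fit and 10 called higher and 2 lower (37.0% and 33.3% over all genes), with a median log2 fold change of 0.48 against 0.02. In the fit of reads 16 of 28 were called higher and 2 lower (46.0% and 27.9% over all genes), and no test of the list was made. Of the genes called higher, 4 in the RPKM fit and 2 in the fit of reads passed the filter through their NPC samples alone. Marcks, an actin-binding substrate of protein kinase C and the gene with the highest mean, had 4.89, 5.21 and 6.42 RPKM in ESCs and 81.4, 78.9 and 75.5 in NPCs, with no overlap (3.62 ± 0.118, limma with Benjamini-Hochberg, adjusted p = 6.58e-07). Nlgn2, a synaptic adhesion protein (2.31 ± 0.204, adjusted p = 8.2e-05, and 2.07 without ESC replicate 3), and Wasf1 of the WAVE actin complex (1.02 ± 0.0611, adjusted p = 1.15e-05) followed. The small GTPase Rhoa fell by 0.53 ± 0.0761 (adjusted p = 9.41e-04) and Pdcd10 by 0.43 ± 0.0547 (adjusted p = 4.75e-04). Pdcd10 passed the filter through its ESC samples alone. Without ESC replicate 3, 5 genes of the list were called lower in place of 2, and 8 in place of 2 in the fit of reads, where 44.0% and 36.5% of all genes were called lower.

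Marker genes of cell types were read in the fit of reads, in which 46.0% of all genes were called higher and 27.9% lower. The 10 ESC markers were called lower in NPCs, and summed to 6583, 6593 and 7893 RPM in ESCs and 33.6, 34.7 and 37.96 in NPCs, with Dppa5a the most abundant. Of these markers Dppa5a, Pou5f1 and Zfp42 passed the filter through their ESC samples alone. The 10 neural progenitor markers, of which Sox2 is also among the ESC markers, summed to 731, 741 and 780 in ESCs and 981, 1042 and 1083 in NPCs. Vim was the most abundant and was not called (log2 fold change 0.21, adjusted p = 0.22), but was called higher without ESC replicate 3 (0.33, adjusted p = 1.88e-04). In this list 8 were called higher, 2 of which passed the filter through their NPC samples alone, and 1, Sox2, lower, and Pax6 had 13, 16 and 4 reads in ESCs and 1328, 1105 and 1535 in NPCs. The neuron markers summed to 341, 350.0 and 452 in ESCs and 314, 269 and 299 in NPCs, where 10 of 12 were called higher (4 of them passed through NPC samples alone) while the most abundant, Stmn2, and Tubb3 were called lower. The sum thus went opposite to most genes of this list. Among those called higher, Dcx had no read in ESCs and 2457, 1735 and 2186 in NPCs. Map2 had 141, 153 and 62 reads against 1212, 1000 and 1314, and Nefl 324, 344 and 322 against 472, 359 and 435.

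Markers of other lineages were present in NPCs. Of 12 markers of mesoderm and mesenchyme, 10 had recovered reads and all 10 were called higher (46.0% over all genes), 5 of which passed the filter through their NPC samples alone, with a sum of 4.49, 4.57 and 2.37 RPM in ESCs and 1728, 1729 and 1694 in NPCs. Col3a1 was the most abundant of them with 24386, 20987 and 24305 NPC reads, and Foxf1 had no read in ESCs and 3294, 2793 and 2893 in NPCs. The 6 of 8 endoderm markers with recovered reads, without Gata6 and Ttr, had Gata4 as the most abundant (5.90 RPKM in NPCs, against 6.69 for Gata6) and summed to 4.70, 4.83 and 3.80 in ESCs and 465, 462 and 469.6 in NPCs (5 of 5 tested called higher, 3 of them passed through NPC samples alone). Endothelium and blood markers went from 142, 137 and 104 to 286, 258 and 246, with 5 of 7 called higher (3 of them passed through NPC samples alone) and 1 lower. In this list Pecam1, the most abundant over all samples, fell from 116, 113 and 89.6 RPM to 47.8, 39.2 and 38.2, Kdr had 4.64, 4.48 and 2.11 against 142, 133 and 127, and Ptprc was at 0 in all NPC samples. Neural crest markers, led by Ets1, went from 32.5, 34.0 and 27.2 to 166, 144 and 139, with 3 of 5 called higher (2 of them passed through NPC samples alone) and 2 lower. Ets1 alone carried this rise, from 0.441, 0.563 and 0.0975 RPM to 153, 131 and 127. Without Ets1 the sum of the list was lower in NPCs than in ESCs. Foxd3 fell from 17.8, 18.9 and 16.6 RPM to 2.02, 1.87 and 1.89, and Tfap2a from 14.2, 14.5 and 10.5 to 2.59, 2.64 and 1.86. The part of cells other than neural progenitors in the rise of the clustered protocadherins was not tested.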

How the data were processed

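RNAseq of 3 ESC and 3 NPC samples and the NADs of both cell types were used. ChIPseq samples were not analysed here, and promoter and protein features of the genes were not analysed here. For RNAseq, the authors deposited RPKM per gene from a pipeline of their own, after removal of rRNA reads (SortMeRNA), trimming (Trimmomatic) and alignment to mm10 (STAR). The submitters' processing notes also list Bowtie2 2.3.4.3 and Subread 1.4.6-p4. Which annotation was used, whether strand was used and what was done with shared reads could not be read from the notes, and kits with and without strand are named. For NADs, the authors aligned reads with Bowtie2, took the ratio of H2B-Dam-NoLS to H2B-Dam with damidseq_pipeline, called domains with find_peaks, kept those common to both experiments and deposited 1 score per NAD, on a scale of their own. Starts were printed 1 higher than in the lists.

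Genes were placed with GENCODE M21. Depth and reads were recovered from the steps between low RPKM values, with a length of end minus start. Genes on chromosomes 15 to 19 gave whole reads in 66.5% of cases (57.3% on chromosome 18), against 99.6% elsewhere. The authors' annotation may differ from M21 there, which was not tested, and unshared lengths may differ from theirs. Fits used R 4.3.3 and limma 3.58.1 (lmFit on log2(RPKM + 1) and eBayes with a trend, or voom on reads with the recovered depth as library size) on all genes that passed the filter, without a block, with Benjamini-Hochberg adjustment, called at adjusted p under 0.05. Fold changes on the log2(RPKM + 1) scale understate those of low genes. Both fits were tested on simulated data. Other steps used Python 3.11.15 with scipy 1.17.1, matplotlib 3.10.9, pandas 2.3.3 and numpy 2.4.6. Counting intervals are 95% Clopper-Pearson intervals of the share of NPC reads, turned into ratios. An exact permutation test of 3 against 3 samples cannot go below p = 0.10 and was not used.

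Named in each cluster were the 4 genes with the highest NPC mean RPKM, the 2 with the lowest above 0, genes with an ESC mean of at least 1 RPKM (none), the 3 called genes with the largest change, called genes that fell, and the C-type genes. Named in each list other than markers were the gene with the highest mean and, among called genes, the 3 that rose most and the 3 that fell most. Named in each marker list was the most abundant gene in RPM, and other markers after their values were seen. Genes said in the text to be chosen after their values were seen stand outside this rule, as do Kdr, Sra1, Gata6, Ttr, Pcdha2, Pcdha3, Pcdha4, Pcdhga5, Pcdhga7, Pcdhga10 and others named for overlaps or position. A gene was said to pass through NPC samples alone where no ESC sample reached 1 RPKM, or the ESC mean was under 10 reads. To pass through ESC samples alone was defined in the same way, from the NPC samples. Members and lists were chosen with earlier results of these data known. Alternatives were a pseudocount of 0.1, filters on a mean of 0.1 RPKM and none, median-ratio scaling, no trend, the replicate number as a block, samples left out in turn, other thresholds of detection and overlap, and those on recovered reads, which were chosen after seeing the data.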

Additional observations from a re-analysis of the deposited data

How the results depend on the processing

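None of the 93 genes of the clusters and lists called on RPKM, or of the 143 called on reads, changed direction under another setting or with a sample left out. Without ESC replicate 3, listed genes that were not called turned and passed the threshold, on RPKM Ndufa2 (0.25, adjusted p = 0.00653), Sra1 (0.11, 0.0325), Pds5a (−0.23, 0.0013) and Tet2 (−0.16, 0.0185). For single clustered protocadherins, 197 values under other settings and 260 with a sample left out kept direction and side of the threshold. Pcdhga8 passed it without each ESC sample (3 values), and Pcdhga1, not called, went to −0.0043 without ESC replicate 3. The number of clustered protocadherins called in the fit of RPKM followed the filter, since fewer or more genes are then tested. With a filter on the mean over all 6 samples (at least 0.1 RPKM), 17 Pcdhb and 2 Pcdhg genes were called higher (19 in all, 41.9% of all genes tested). With no filter, 1 Pcdha, 21 Pcdhb and 17 Pcdhg genes were called higher (39 in all, 39.5% of all genes tested) and 1 Pcdhg gene lower (22.9%). For lists, these filters gave 6 and 10 non-clustered protocadherins, 13 and 13 flanking genes and, with no filter, 16 partner genes called higher. In the fit of reads, chosen after seeing the data, a minimum of 15 reads in total gave 6 Pcdha genes called higher (46.2% of all genes tested), all through NPC reads. Median-ratio scaling of the reads gave 4 partner genes called lower, with 30.4% of all genes called lower against 27.9% without it. With the replicate number as a block, 7 clustered protocadherins were called higher on RPKM and 33 higher and 1 lower on reads, out of 5212 and 9273 genes called in all (5498 and 9740 without it). Samples of equal number had correlations of their deviations of 0.11, −0.08 and 0.03 across 7831 genes, so they were not treated as paired, and the block changed no call of a clustered protocadherin.

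With each sample left out in turn, 33 to 34 clustered protocadherins were called higher on reads and 7 on RPKM. Of all genes tested, 41.3% to 51.7% were called higher on reads and 32.1% to 43.9% on RPKM in these fits. Genes of the CTCF list called lower ranged from 5 to 11 (6 to 12 on reads) and partner genes called lower from 2 to 5 (2 to 8), the upper value without ESC replicate 3. The shares of all genes called lower ranged from 26.7% to 44.0% (23.3% to 36.5% on reads) in the same fits. The Spearman correlation of ESC and NPC order in Pcdhb, 0.533 on RPKM, ranged from 0.392 (without ESC replicate 2) to 0.556 (without NPC replicate 1). The cause was not tested. It was 0.699 in Pcdhb and 0.0974 in Pcdhg in RPM, and 0.0165 in Pcdhg per kb of unshared exon, and among genes with an unshared exon base 0.323 on RPKM and −0.0451 in RPM in Pcdhg. Without its highest member, the sum was 0.00856 RPKM for Pcdha in NPCs, 0.213 and 0.968 RPKM for Pcdhg in ESCs and NPCs, and 90.9 RPM for Pcdhg in NPCs. At 0.1 RPKM in the group mean, 21 Pcdhb and 4 Pcdhg genes were detected in NPCs and 1 Pcdhg gene in ESCs, and at 1 RPKM in every replicate 0 Pcdhg genes in NPCs. For NADs, 3 Pcdha genes in each cell type and 0 Pcdhg genes in NPCs had most of their length in one. By their start, 1 Pcdha gene in ESCs and 3 in NPCs were in one. With NADs at or above the median score, 0 Pcdha and 0 Pcdhb genes in ESCs (0% of bases each) and 0 Pcdhg genes in NPCs (0%) remained. Depth limits Pcdha and the ESC values of Pcdhb, which rest on single reads.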
